A study of Caenorhabditis elegans with 2 samples.

Results

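The 129 genes annotated as small nuclear RNA (snRNA) genes on the nuclear chromosomes of *Caenorhabditis elegans* were examined for peaks of VAB-7::EGFP, the nematode Even-skipped class homeodomain protein fused to enhanced green fluorescent protein. All 129 were taken from the Ensembl annotation by biotype, whether or not a peak lay near them, out of 46890 annotated genes. A gene was counted as having a summit when the highest point of a peak, its summit, was no more than 200 bp from the 5′ end of the gene, and 23 of the 129 had one. The count used the series list, 1815 peaks that passed the authors' threshold on the irreproducible discovery rate (IDR), a measure of how well peaks recur between lists.

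There was 1 group of 2 biological replicates, whole L4 larvae of strain RW12267 at 47 h, synchronised by starvation at the L1 stage. Both replicates carried st12267[vab-7::TY1::EGFP::3xFLAG], an insertion at the native vab-7 locus on chromosome III that adds the tag. Chromatin sheared to fragments of 200 to 800 bp was precipitated with an antibody against GFP. No untagged or input sample was analysed here, so peaks that need the tagged protein and peaks that do not cannot be told apart, and in whole larvae neither can the cells they come from.

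Small nuclear RNAs are the RNA parts of the spliceosome. In nematodes they include spliced leader RNAs, which give a short leader exon to other transcripts by trans-splicing. SL1 RNA serves most trans-spliced genes and SL2 RNA mainly the downstream genes of operons, while SmY RNAs are nematode RNAs that bind Sm proteins and are linked to trans-splicing. snRNA genes are short and carry a proximal sequence element upstream of their start, which the complex SNAPc binds. Most are read by RNA polymerase II, and the U6 genes, which also carry a TATA box, by RNA polymerase III.

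RefSeq names gave a type for 3 groups, 12 SL1 genes (sls-1), 18 SL2 genes (sls-2) and 10 SmY genes (smy). The other genes carry no type in the annotation and were grouped by sequence, at 75% identity or more, into families called here by 1 member. These were the W05B2.8 family (24 genes), the R05D7.6 family (19), the sup-39 family (13), the F07C6.5 family (12) and the C52E4.8 family (5). Another 16 genes, called other here, joined none of these. The sup-39 family holds sup-6 and sup-39, U1 snRNA genes of *C. elegans* found through suppressor mutations.

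The 100 bp upstream of the annotated 5′ end were read from the RefSeq genome sequence for WBcel235, the assembly behind ce11. The first set shows genes with a summit, from 4 types, read 5′ to 3′ toward the gene. Capitals mark matches, on the strand of the gene, to 3 short words in which N is any base. The first word is GNAACC. The second, nearer the gene, is TGTCNG. The third is TATATA.
W05B2.8 (chrIII:10989579-10989678, plus strand): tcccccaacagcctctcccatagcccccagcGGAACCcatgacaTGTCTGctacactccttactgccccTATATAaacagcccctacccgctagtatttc
C28A5.7 (chrIII:4426956-4427055, minus strand): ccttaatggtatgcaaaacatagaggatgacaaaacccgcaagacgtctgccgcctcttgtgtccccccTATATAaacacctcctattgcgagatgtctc
F54D8.7 (chrIII:5080899-5080998, minus strand): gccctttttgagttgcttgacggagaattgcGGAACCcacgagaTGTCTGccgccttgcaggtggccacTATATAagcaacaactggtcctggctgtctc
sls-2.2 (chrII:5543498-5543597, plus strand): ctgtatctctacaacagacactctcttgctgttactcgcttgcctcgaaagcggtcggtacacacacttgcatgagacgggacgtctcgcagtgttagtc
sls-2.8 (chrIII:12250365-12250464, plus strand): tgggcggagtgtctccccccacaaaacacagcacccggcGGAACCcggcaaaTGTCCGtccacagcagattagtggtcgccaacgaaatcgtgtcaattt
sls-2.15 (chrIII:11090910-11091009, plus strand): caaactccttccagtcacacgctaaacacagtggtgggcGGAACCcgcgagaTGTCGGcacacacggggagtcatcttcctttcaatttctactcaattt
sup-6 (chrII:12944968-12945067, minus strand): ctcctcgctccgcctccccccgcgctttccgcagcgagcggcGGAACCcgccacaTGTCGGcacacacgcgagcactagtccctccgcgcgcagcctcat
C52E4.8 (chrV:11980018-11980117, plus strand): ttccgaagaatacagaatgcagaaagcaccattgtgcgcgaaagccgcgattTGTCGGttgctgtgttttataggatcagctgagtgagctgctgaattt
The second set shows genes without a summit in the series list. K09B11.13 is given because its transcribed sequence is the same as those of W05B2.8 and C28A5.7.
K09B11.13 (chrIV:13440654-13440753, minus strand): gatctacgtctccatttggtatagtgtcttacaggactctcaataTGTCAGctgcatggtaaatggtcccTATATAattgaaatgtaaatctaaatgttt
F08G2.11 (chrII:13852687-13852786, plus strand): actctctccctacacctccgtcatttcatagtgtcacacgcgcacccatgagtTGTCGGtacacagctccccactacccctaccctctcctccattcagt
ZK897.4 (chrIV:12787038-12787137, plus strand): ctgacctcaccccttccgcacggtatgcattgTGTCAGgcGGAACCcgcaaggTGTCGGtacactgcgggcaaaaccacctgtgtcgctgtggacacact
smy-6 (chrV:14097518-14097617, minus strand): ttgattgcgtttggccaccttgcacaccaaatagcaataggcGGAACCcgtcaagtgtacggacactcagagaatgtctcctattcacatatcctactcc
sls-1.2 (chrV:17131162-17131261, minus strand): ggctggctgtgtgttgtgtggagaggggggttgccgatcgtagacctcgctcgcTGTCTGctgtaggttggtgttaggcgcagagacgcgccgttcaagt

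The 23 genes made up 17.8% of the 129 snRNA genes, with an exact 95% interval of 11.7 to 25.5%. Over all annotated genes the share was 3.09%. The 23 genes shared 22 summits, because mir-1831, a 22-base gene that this annotation files under snRNA, lies inside sup-39 and has the same summit. The conservative list gave 25 of 129 snRNA genes against 2.98% of all genes. The list of replicate 1 gave 17 snRNA genes against 2.02% of all genes, and that of replicate 2 gave 17 against 2.27%.

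Among other RNA genes, 75 of 346 snoRNA genes had a summit (21.7%, 17.4 to 26.4%) and 446 of 612 tRNA genes (72.9%, 69.2 to 76.4%). The interval for snRNA genes overlapped that of snoRNA genes and lay below that of tRNA genes. For miRNA genes the count was 12 of 261 (4.6%, 2.40 to 7.89%), and for protein-coding genes the share was 1.77%. These differences were not tested, since neighbouring genes share summits and families share sequence.

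**Figure D1:**
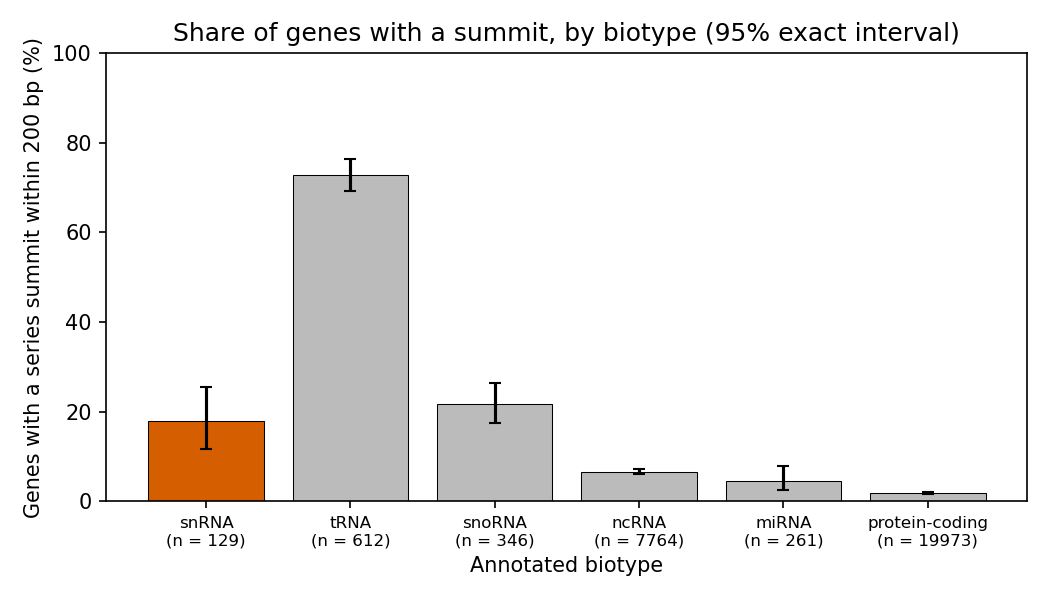
Percent of annotated genes with a series summit within 200 bp of the 5′ end, for snRNA genes and 5 other biotypes, with exact 95% intervals that cover counting error only. The bar of snRNA genes stands at 17.8%, near that of snoRNA genes at 21.7% and under that of tRNA genes at 72.9%.

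The types differed in their counts. Of the 18 SL2 genes, 9 had a summit (50%, 26.0 to 74.0%). The W05B2.8 family had 5 of 24 (20.8%, 7.13 to 42.2%), the sup-39 family 4 of 13 (30.8%, 9.09 to 61.4%) and the R05D7.6 family 3 of 19 (15.8%, 3.38 to 39.6%). The C52E4.8 family had 1 of 5 and the other genes 1 of 16, which was mir-1831. No summit was found at the 12 SL1 genes or the 12 genes of the F07C6.5 family, counts that allow shares up to 26.5%. None was found at the 10 SmY genes either, which allows up to 30.8%. The limit for SL1 takes its genes as independent, although all are on V and 10 share 1 sequence. In the lists of single replicates the SL2 count was 8 and 7 and that of the W05B2.8 family 4 and 5, while the sup-39 family had 2 in both and the R05D7.6 family 1 and 0. The intervals of all types overlap one another, but that of SL2 meets those of SL1 and the F07C6.5 family only between 26.0 and 26.5%. Overlap does not show that types are alike, and the intervals take genes as independent although families share sequence. The differences between types were not tested.

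**Figure D2:**
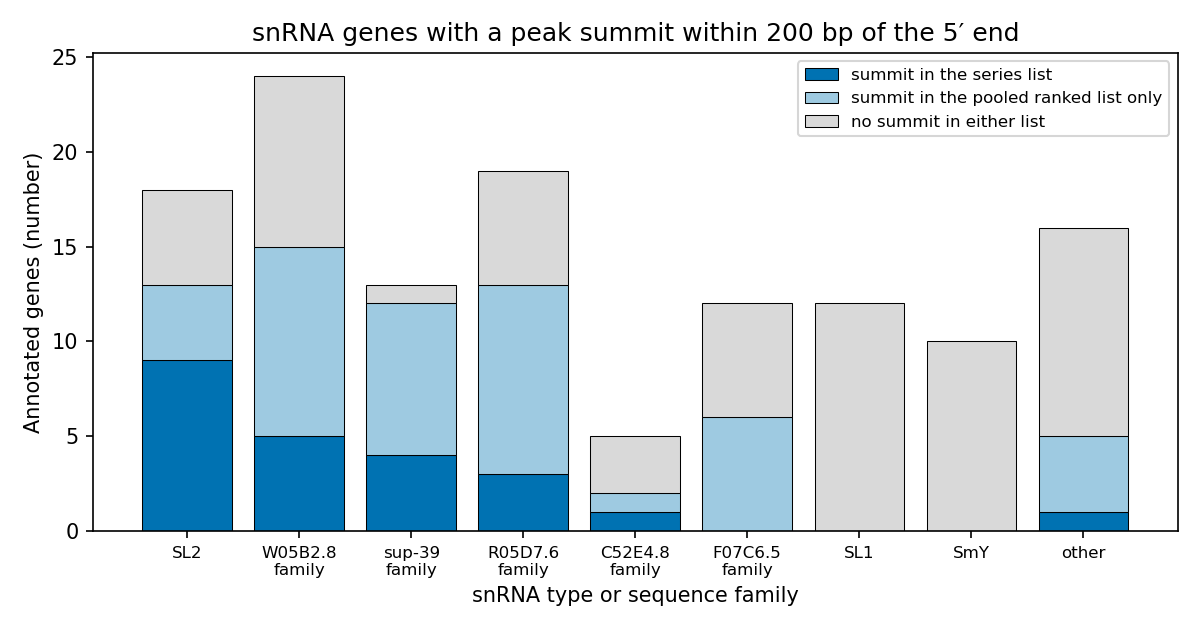
Number of annotated snRNA genes of each type or family, split into genes with a summit in the series list, genes with one in the pooled ranked list only, and genes with neither. SL2 shows 9 of 18 genes with a series summit, and the SL1 and SmY bars hold no gene with a summit in either list.

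SL2 genes held the most summits of any type. The strongest was at sls-2.2 (chromosome II, 5543598 to 5543707, plus strand), whose peak had a signal of 260, rank 111 of the 1815 peaks. Signal is the value of the authors' peak caller and was used only within a list. At sls-2.9 on chromosome I the signal was 248, and at sls-2.4, also on I, it was 212. sls-2.1 on II followed with 207 and sls-2.8 on III with 176. The other SL2 peaks were at sls-2.3 (122), sls-2.15 (113), sls-2.14 (98.0) and sls-2.16 (91.3). The median over the 9 was 176, and 7 of them lay above the series median of 105. Neighbouring SL2 genes had a summit each at 2 places, sls-2.2 with sls-2.3 on II and sls-2.14 with sls-2.15 on III.

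The W05B2.8 family had the highest peak. W05B2.8 itself (chromosome III, 10989679 to 10989780, plus strand) had a signal of 359, rank 32 of the series list. C28A5.7 (III, 4426854 to 4426955, minus strand) had 222, F54D8.7 (III, 5080798 to 5080898, minus strand) 182 and R07E5.16 (III) 139. K09C6.12 on V had the lowest signal of the family, 104. The single summit of the C52E4.8 family, at C52E4.8 (V, 11980118 to 11980261, plus strand), had 145. In the sup-39 family, sup-6 (II, 12944803 to 12944967, minus strand) had 174, sup-39 had 120, T08G5.11 had 90.8 and H27M09.6 had 68.5, the lowest signal of the 22. R05D7.6, F56H6.14 and Y57G11C.35 of the R05D7.6 family had 103, 94.2 and 79.4, all under the series median.

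Over the 22 peaks the median signal was 130, against 105 for the 1793 other peaks of the list, and 14 of the 22 were above the series median. Peaks at snoRNA, tRNA, piRNA and ncRNA genes, 74, 413, 10 and 432 in number, had medians of 208, 152, 156 and 131. Those at protein-coding and miRNA genes, 321 and 11 in number, had 102 and 92.5. The ncRNA set shares peaks with the 22. The median rank of the 22 stood at 34.8% of the list counted from the strongest. Only W05B2.8 was among the 100 strongest peaks. The score, the authors' rescaled IDR with 1000 at the top, was at that top for 20 of the 22 peaks and for 1337 of the 1793 others.

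Summits lay close to the gene starts. Within the window of 200 bp that the count allows, their median position was 17 bp downstream of the 5′ end and the range was −135 to 184 bp. In the list of replicate 1 the median was −15 bp, on the other side of the 5′ end, and in that of replicate 2 it was 7.5 bp. Of the 22 summits in the series list, 14 lay inside the gene and 8 upstream. The 5′ end was within 50 bp of 12 summits and within 100 bp of 18. The 5 summits of the W05B2.8 family lay between −26 and 23 bp. The 9 of SL2 had a median of −1 bp and a range of −135 to 83 bp, and the 4 of the sup-39 family all lay inside the gene, at 36 to 139 bp. In the R05D7.6 family the positions were −92, 140 and 184 bp, at F56H6.14, Y57G11C.35 and R05D7.6. The 2 genes nearest the limit on its inner side were R05D7.6 at 184 bp and Y57G11C.35 at 140 bp. On its outer side were F56H6.16 at 750 bp and sls-2.5 at −837 bp, so no gene lay between 184 and 750 bp. In the ranked lists of single replicates, the strongest summits within 200 bp did not always lie on the same side. T08G5.11 of the sup-39 family had 84 bp in replicate 1 and −14 bp in replicate 2, and sls-2.14 had 106 and −20 bp. C28A5.7 had −25 and 11 bp, and C52E4.8 had −28 and 6 bp. At W05B2.8 both lay downstream, at 27 and 19 bp. The side of a summit is therefore that of the series list.

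**Figure D3:**
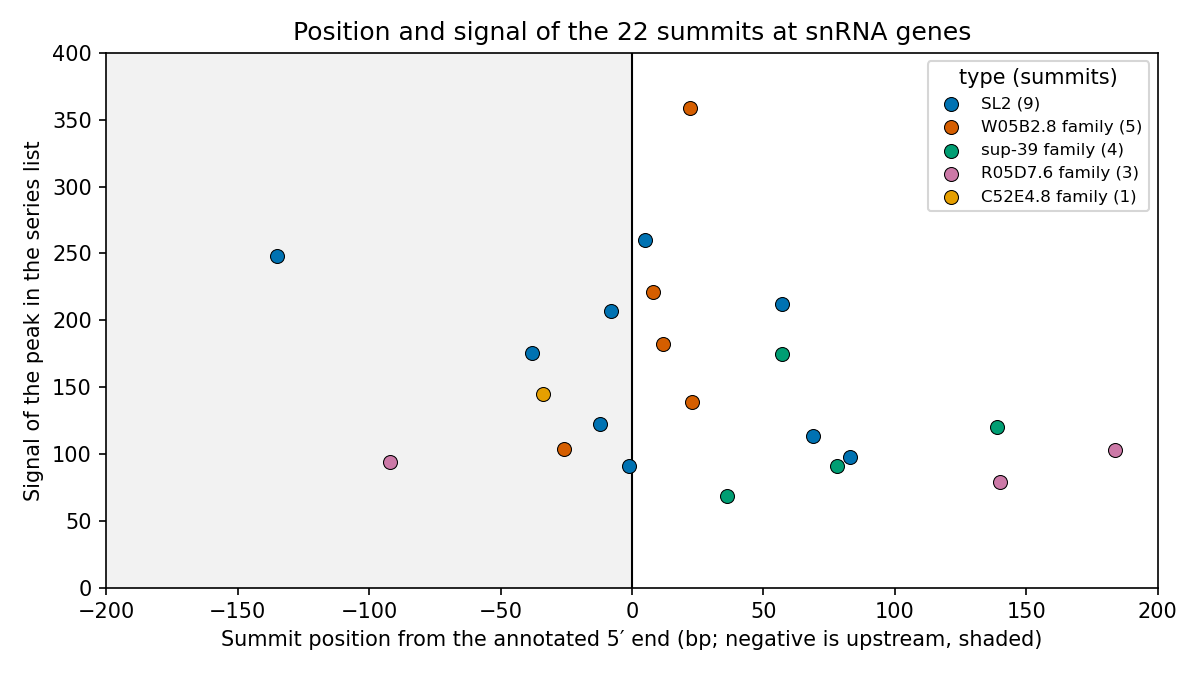
Signal of each of the 22 peaks against the position of its summit from the annotated 5′ end in bp, coloured by type, with upstream positions shaded. The W05B2.8 family sits between −26 and 23 bp with the highest point at 359, while the sup-39 family lies downstream of the 5′ end.

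Both replicates gave a signal at each of the 22 peaks, read as the highest signal in the ranked list of that replicate with a summit inside the peak. W05B2.8 had 195 in replicate 1 and 156 in replicate 2. sls-2.2 had 137 and 101, and sls-2.9 had 131 and 114. These were the 3 highest signals in either replicate among snRNA genes. C28A5.7 had 127 and 91.2, sls-2.4 had 125 and 76.5, and sls-2.1 had 117 and 96.5. Replicate 1 was the higher of the pair in all of these. F54D8.7, with 91.8 in replicate 1 and 97.5 in replicate 2, sup-39, with 48.9 and 60.8, and sls-2.15, with 53.6 and 56.0, were the 3 peaks at which replicate 2 was higher. The median log2 ratio of replicate 1 over replicate 2 was 0.38 at the 22 peaks and 0.37 at the 1758 series peaks with both signals. The normalization of the signal is not stated, so a ratio between the lists describes the lists. The largest ratio was at Y57G11C.35, with 61.1 in replicate 1 and 23.6 in replicate 2, although only the thresholded list of replicate 2 overlapped that peak.

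A thresholded list of its own overlapped the peak in both replicates at 12 of 22 peaks (54.5%), against 687 of the 1793 other peaks (38.3%). At snoRNA, tRNA, ncRNA and piRNA genes the share of peaks was 67.6%, 63.4%, 54.6% and 50% (5 of 10 for piRNA). At miRNA and protein-coding genes it was 36.4% (4 of 11) and 32.7%. An ncRNA gene starts within 200 bp of 14 of the 22, so the ncRNA set shares peaks with the 22. The 12 peaks overlapped in both replicates were at W05B2.8, C28A5.7, F54D8.7, R07E5.16, C52E4.8, T08G5.11 and 6 SL2 genes. sup-6, sls-2.14, F56H6.14 and sls-2.16 were overlapped by the list of replicate 1 alone. sup-39, sls-2.15, K09C6.12 and Y57G11C.35 were overlapped by that of replicate 2 alone. R05D7.6 and H27M09.6 were overlapped by neither. The conservative list held a peak at 21 of the 22, all but Y57G11C.35. With 2 replicates no spread beyond this pair can be given.

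**Figure D4:**
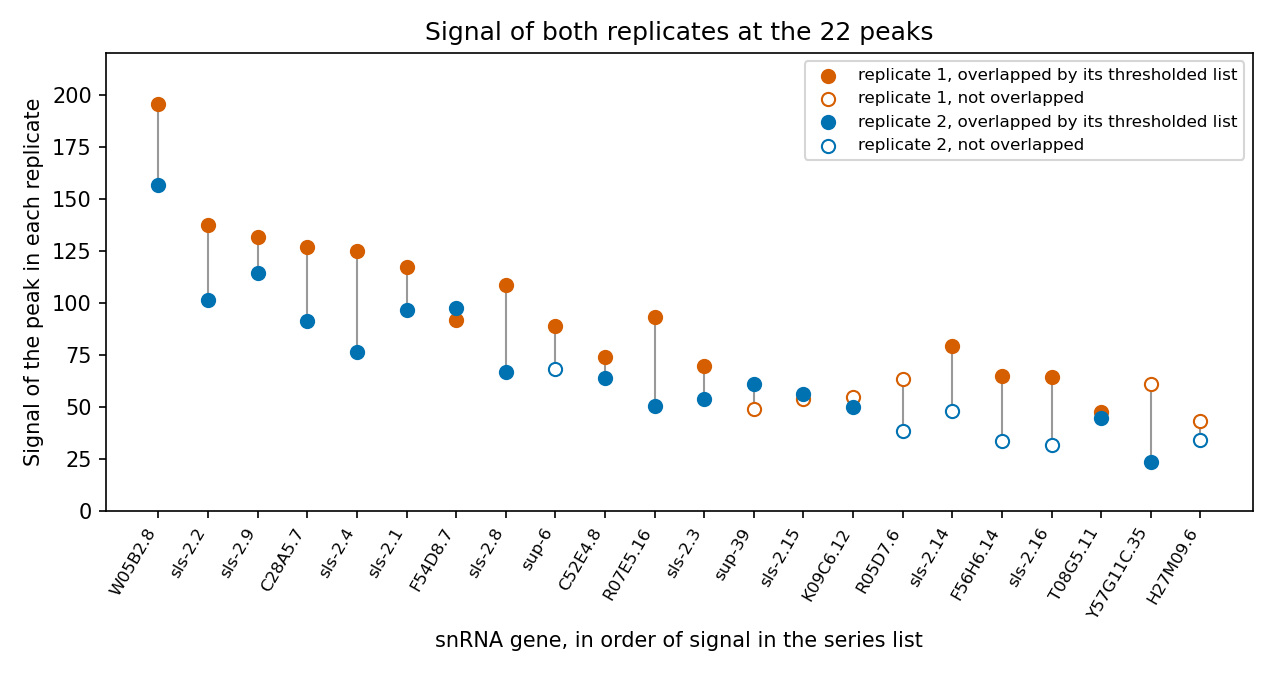
Signal of each of the 22 peaks in replicate 1 and replicate 2, in order of signal in the series list, with filled points where the thresholded list of that replicate overlapped the peak. Replicate 1 is higher at 19 of the 22, and open points are found only from sup-6 downward in that order.

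The snRNA genes with a series summit were unevenly spread over the chromosomes. Chromosome III had 8 of 13 snRNA genes (61.5%, 31.6 to 86.1%), II had 6 of 16, I had 5 of 16, V had 3 of 40 (7.50%, 1.57 to 20.4%), IV had 1 of 41 (2.44%, 0.0617 to 12.9%) and X had 0 of 3. Within types, SL2 genes had a summit at 3 of 3 on II, 4 of 6 on III, 2 of 4 on I and 0 of 5 on IV. In the W05B2.8 family it was 4 of 7 on III, 0 of 13 on IV and 1 of 2 on V, with 0 of 1 on I and on II. The R05D7.6 family held the single summit on IV, with 1 of 2 there, 2 of 9 on I, 0 of 7 on II and 0 of 1 on V. In the sup-39 family it was 1 of 1 on I, 2 of 3 on II and 1 of 9 on V. The vab-7 insertion is also on III, and whether it bears on these counts was not tested. The types are unevenly spread as well, with all 12 SL1 genes on V and 11 of the 12 genes of the F07C6.5 family on IV. The share of all annotated genes with a summit was not counted by chromosome. These counts therefore do not show whether the spread is particular to snRNA genes. The part of the chromosome in them was not tested.

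Below the threshold, the pooled ranked list of 88007 peaks had a summit within 200 bp of 66 of the 129 snRNA genes (51.2%), against 27.7% of all annotated genes. All 23 genes with a series summit were among the 66, which leaves 43 with a ranked summit only and 63 with none. These are counts of genes, and neighbours can share a ranked summit, as T27E4.12 and T27E4.22 of the sup-39 family do. The 43 had a median signal of 44.2 (10.7 to 85.1) in that list, where all peaks had a median of 22.6, and 35 of the 43 were above it. Their scores ran from 29 to 809 with a median of 227, and the lowest score in the series list was 830.

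The strongest of the 43 was M163.13, an 80-base gene on X and 1 of the other genes, with a pooled signal of 85.1 at −13 bp. Its ranked signal was 40.3 in replicate 1 and 50.5 in replicate 2. T27E4.10 of the sup-39 family followed with 83.5 at 154 bp and F40G12.13 of the same family with 59.1 at 24 bp. In the F07C6.5 family, which had no series summit, F07C6.5 had 76.5 at −93 bp and F32B5.9 had 72.4 at 21 bp. Y17G9A.85 and T08B6.62 of the W05B2.8 family had 71.0 at 39 bp and 70.6 at −18 bp. All 4 were above the lowest series signal at an snRNA gene, 68.5, with scores of 209, 662, 745 and 681, under the lowest score of the series list. sls-2.18 had 66.6 at 30 bp and sls-2.5 had 61.5 at 12 bp. Y47H9A.2 and Y54G9A.8 of the R05D7.6 family had 64.6 at 9 bp and 58.6 at 129 bp, T10H4.16 of the other genes had 36.6 at −35 bp, and T11F9.16 of the C52E4.8 family had 28.8 at 83 bp.

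A summit in another thresholded list was found at 4 genes without one in the series list. The conservative list had T08B6.62, F08G2.10 and M163.13, and M163.13 was also in the list of replicate 2. F38E11.10 of the F07C6.5 family was in the list of replicate 1 alone. It had no pooled ranked summit within 200 bp, although its ranked signals were 54.6 in replicate 1 and 58.4 in replicate 2.

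None of the 12 SL1 genes or the 10 SmY genes had a summit within 200 bp even in the pooled ranked list. Of the 12 SL1 genes, 6 had a peak farther off, at distances of 303 to 780 bp on either side, which reached the lowest score of the series list but was not in it. The 6 genes did not have a peak each, since sls-1.3 shared its peak with sls-1.4, and sls-1.8 with sls-1.9. Those peaks had pooled signals of 86.7 to 166, and 72 of the 1887 pooled peaks at or above that score were missing from the series list in all. The deposited notes derive the thresholded lists from a further file that the ranked lists do not use, and that file was not analysed here.

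Copies with the same transcribed sequence differed in their signal. The 102 bases of W05B2.8 recur unchanged in 14 genes, of which 4 had a series summit (W05B2.8, C28A5.7, R07E5.16 and K09C6.12), 7 a ranked summit only and 3 none. Their signals ran from 104 to 359 in the series list, while the lowest pooled signal among the 11 with a summit in either list was 10.7, at F54C8.9. K09B11.13, whose upstream sequence is given above, had 11.8 at −171 bp. That summit is shared with its neighbouring copy K09B11.14 and lies nearer to it, at −78 bp. The 187 bases of R05D7.6 recur in 7 genes, of which R05D7.6 and F56H6.14 had a series summit, 4 had a ranked summit only and 1 had none. F54D8.7 has 2 copies, T08B6.62 and Y17G9A.85. C52E4.8 has 1, T11F9.15, with no pooled ranked summit. Among the SL1 genes, 10 share 1 sequence of 98 bases. Of all 44 genes with an identical copy 8 had a summit (18.2%, 8.19 to 32.7%), and of the 85 without a copy 15 did (17.6%, 10.2 to 27.4%). How the authors placed reads that match several copies is not given in the sources used here, so signal inside these genes could be split among copies or lost.

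The upstream sequences shared bases that the choice of genes did not use. Base agreement was measured in bits, where 0 is no preference among the bases and 2 is the same base in every gene. From −65 to −40 bp it averaged 0.231 over the 23 genes with a summit, 0.145 over the 96 distinct upstream sequences of snRNA genes without one, and 0.0954 over 19973 protein-coding genes. Farther upstream, from −100 to −66 bp, the averages were 0.0757, 0.0812 and 0.0858. From −39 to −1 bp they were 0.179, 0.122 and 0.126, and at −1 bp itself agreement reached 0.743 with a summit and 0.615 without. The highest value from −65 to −40 bp was 0.692 at −43 bp in genes with a summit. In genes without one it was 0.387 at −56 bp. The first set is small and holds both sup-39 and mir-1831, whose upstream sequences overlap. Families within both sets share sequence, so the values are a description. The limits of −65 and −40 bp were chosen after the sequences were seen.

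**Figure D5:**
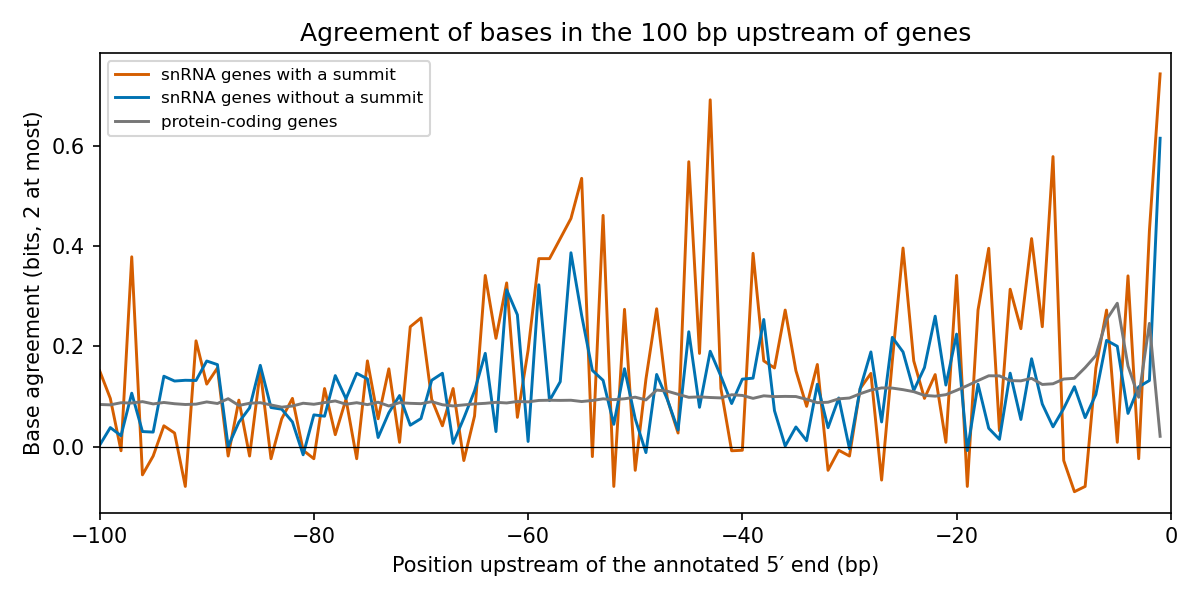
Agreement of bases in bits at each position from −100 to −1 bp upstream of the annotated 5′ end, corrected for the number of sequences, for snRNA genes with a summit, snRNA genes without one and protein-coding genes. Between −65 and −40 bp the line with a summit is above the protein-coding line at 17 of 26 positions, up to 0.692, and the line without at 16 of 26, up to 0.387. The highest point of both snRNA lines is at −1 bp.

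The 3 words marked in the sequences were also chosen after the upstream sequences had been looked at. None contains another. On the strand of the gene, 42 of 56 matches to the first and 75 of 85 to the second started between −65 and −40 bp, while in the W05B2.8 family the first started at −69 or −68 bp. On either strand, TGTCNG was found upstream of 81 of the 129 snRNA genes (62.8%) and of 9.71% of all genes with 100 bp upstream. GNAACC was found upstream of 65 (50.4%), against 9.77% of all genes, and both words upstream of 44 (34.1%), against 1.24%. Upstream of snoRNA genes the shares were 22.8% for TGTCNG, 18.8% for GNAACC and 9.25% for both, and upstream of tRNA genes 18.3%, 11.8% and 2.94%. On the strand of the gene, the median start of GNAACC was −61 bp in genes with a summit and −60 bp in genes without. That of TGTCNG was −48 bp in genes with a summit and −47 bp in genes without.

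Of the 23 genes with a summit, 21 held TGTCNG, and C28A5.7 and K09C6.12 did not. Matches on the opposite strand were counted here but are not in capitals above. Among the genes shown, these are TGTCNG at sls-2.2 and smy-6 and GNAACC at C52E4.8 and sls-1.2. At C52E4.8 that match overlaps its TGTCNG. All 9 SL1 genes with GNAACC held it on the opposite strand only. By word, 11 of 44 snRNA genes with both words had a summit (25%, 13.2 to 40.3%) and 10 of 37 with TGTCNG alone (27.0%, 13.8 to 44.1%). With GNAACC alone it was 0 of 21 (0 to 16.1%), and with neither 2 of 27 (7.41%, 0.910 to 24.3%). The 11, like the 21 above, include both sup-39 and mir-1831, which share a summit and have overlapping upstream sequences. C52E4.8 is also among the 11. The words follow the types. SmY genes held GNAACC in 8 of 10 cases and TGTCNG in 2, while 10 of 12 SL1 genes held TGTCNG and none had a summit. TATATA was found in 20 snRNA genes, 16 of them in the W05B2.8 family, where it started at −31 or −30 bp. It was upstream of 5.07% of all genes and of all 5 W05B2.8 family genes with a summit. The words and the summits were not tested against each other.

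Homeodomain proteins commonly recognise DNA with a TAAT core. None of the 22 snRNA summits had TAATTA or TAATGA within 50 bp on either strand (exact 95% interval up to 15.4%), against 78 of 1793 other summits (4.35%, 3.45 to 5.40%). At these counts a difference was not detectable. The median GC content in the same window was 49.0% at the snRNA summits and 50.5% at the others.

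Other genes lay close to many of the summits. An annotated ncRNA gene had its 5′ end within 200 bp of 14 of the 22 snRNA summits, a tRNA gene at 1 (sls-2.9), and a snoRNA gene at 0. Over the whole series list of 1815 peaks, 508 of 7764 ncRNA genes had a summit, at 432 distinct summits. For tRNA genes there were 413 distinct summits, for snoRNA genes 74 and for protein-coding genes 321. Each gene was counted at its nearest summit, and snRNA summits are included. A protein-coding 5′ end lay within 200 bp at 1 summit, F56H6.14, where F56H6.2 starts 32 bp away, and within 1000 bp at 11. No other annotated 5′ end lay within 200 bp at 7 summits, among them W05B2.8, sls-2.1 and F54D8.7. At W05B2.8 the nearest protein-coding start, col-94, was 1828 bp away. How many other series peaks have a protein-coding start within 1000 bp, or no annotated 5′ end within 200 bp, was not counted. Whether the counts within 200 bp differ from those of the whole list was not tested. None is therefore shown to be particular to snRNA summits. Which of the neighbouring genes a summit belongs to cannot be told apart.

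Genes that make or assemble snRNAs were then looked up in 7 lists, covering SNAPc, RNA polymerase III with TFIIIB, the Integrator complex that trims snRNA ends, Sm proteins, LSm proteins, U1 and U2 snRNP proteins, and the SMN and spliced leader snRNP proteins. Of 68 listed symbols 51 matched protein-coding genes. Within 200 bp, 3 of the 51 had a summit, against 1.77% of protein-coding genes, and within 1000 bp 7 did, against 5.5%. The 3 were ints-4 of Integrator at 17 bp with a signal of 180, rpac-19, a subunit of RNA polymerases I and III, at −166 bp with 93.2, and lsm-6, of the LSm ring that binds U6 snRNA, at −131 bp with 81.3. The other 4 were snr-1 at −415 bp (202) and snr-4 at −361 bp (145), both Sm proteins, which form the ring on most snRNAs, lsm-7 at 545 bp (78.5) and sna-2, a spliced leader snRNP protein, at −598 bp (80.7). The snr-4 summit is the one at C52E4.8, so an Sm protein gene and an snRNA gene share that peak. No SNAPc subunit of the 7 matched, and no U1 or U2 snRNP protein of the 6 matched, had a summit within 1000 bp.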

How the data were processed

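Per the labels, chromatin from 2 biological replicates was precipitated with an antibody against GFP and sequenced. The deposited data used are 8 peak lists on ce11, called both per replicate and over both, per the file headers and notes. The deposited score is the authors' rescaled IDR. The deposited signal is the peak caller's value, of unstated normalization. The deposited −log10 values are, by the layout, of an adjusted p or q in thresholded lists. The sources used here do not give the aligner, caller, read depth or control handling, so depth is unknown and intervals cover counting of genes only.

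Summits were the deposited offset added to the peak start, and were set against Ensembl release 115 on the 6 nuclear chromosomes. Names came from RefSeq, through WormBase IDs, for all 129 genes, since Ensembl gives 44 of them a name shared among copies. Families were joined at 75% edit identity (edlib 1.3.9.post1). Which ranked list compares replicates was settled from its values: 69.7% and 55.3% of its paired signals recur in the ranked lists of replicates 1 and 2. An overlap meant 1 bp or more. Bits had a small-sample correction. Intervals are exact (Clopper-Pearson, 95%). Python 3.11.15, numpy 2.4.6, pandas 2.3.3 and scipy 1.17.1 were used, and the window rule was tested on simulated summits.

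No test was run, as there was 1 group. Genes and lists were chosen with earlier results of these data known. Named are the genes with a series summit, those with one in another thresholded list, those at the limit, the 2 strongest ranked genes per type, and list members within 1000 bp. Other genes named, such as those of shared sequence, were chosen after their values were seen. Alternatives were other windows, lists, positions and overlaps.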

Additional observations from a re-analysis of the deposited data

How the results depend on the processing

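Of 115 alternative values, 98 stayed within 1.5 times the count or 1 SD of the value reported, and 29 of these set 0 genes against 0. The SDs, of position and of rank, come from the 2 replicate lists, which are themselves among the alternatives. The count of 23 snRNA genes was 15 above the median signal of the series list and 17 in the list of either replicate alone. With the 100 bp window the R05D7.6 family had 1 gene and the other genes 0. Above that median the R05D7.6 family had 0 and the sup-39 family 2. The conservative list gave 2 other genes, and leaving out mir-1831, an alternative chosen after seeing the data, gave 0. Between the lists of single replicates the R05D7.6 family ranged from 0 to 1, the sup-39 family had 2 in both, the other genes ranged from 0 to 2 and the F07C6.5 family from 0 to 1. The median position was −15 bp in the list of replicate 1, with the sign turned, and 7.5 bp in that of replicate 2. The median signal rank was 42.8% in the conservative list, 40.3% in the list of replicate 1 and 49.1% in that of replicate 2, where the lists differ in length and in members. The cause of these shifts was not tested.

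No paired analysis was possible because there is 1 group and no comparison of groups. Read depth and signal over background are unknown, and identical gene copies limit where reads can be placed.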
